A study of Mus musculus with 13 samples.

Results

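The 10 genes described here are the 4 members of the Id family (Id1, Id2, Id3 and Id4) and 6 genes of the bone morphogenetic protein (BMP) pathway (Bmp4, Bmpr1a, Smad1, Smad5, Smad6 and Msx2). They were picked by symbol from the 24079 genes of an RNA-seq count table, and all 10 were among the 13972 genes with enough counts to be tested. The study followed replication origins and gene expression in CGR8, a line of mouse embryonic stem (ES) cells, exposed to PhenDC3, a small molecule that binds and stabilises G-quadruplexes (G4), the 4-stranded structures that guanine-rich DNA can form. RNA-seq compared 3 control samples (0.5% DMSO for 48 h) with 3 PhenDC3 samples (10 μM PhenDC3 and the same 0.5% DMSO for 48 h). SNS-seq, which maps origins through the short nascent strands made where replication has just started, was available as peak lists from 3 control and 2 PhenDC3 samples. All of these samples are of the CGR8 line, so no second line stands beside it.

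BMP ligands are secreted dimers that bring type I and type II receptor kinases together. The type I receptor then phosphorylates Smad1, Smad5 and Smad9, which join Smad4 and act on genes in the nucleus, while Smad6 and Smad7 restrain the cascade. The Id genes are the best known targets of the pathway, and in mouse ES cells BMP4 acting through Id proteins is known to help hold back neural differentiation. Id proteins carry a helix-loop-helix domain without a DNA-binding region and tie up the E proteins, the partners that tissue-specific basic helix-loop-helix factors need to bind DNA.

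The RNA-seq samples held between 22232014 and 29486502 counts. Levels are given as counts-per-million (CPM) of the normalised library, and a gene was called at an adjusted p of at most 0.05 in edgeR's quasi-likelihood test with Benjamini-Hochberg adjustment over all genes tested. The ribosomal RNA gene Rn45s took 2.55% to 5.70% of the counts in the controls and 0.172% to 1.43% with PhenDC3. The defining ES cell genes were high in every sample, with Pou5f1 between 1045 and 1621 CPM. Of 10 pluripotency markers, 4 rose (Nanog, Klf4, Tbx3, Dppa5a), 3 fell (Pou5f1, Tdgf1, Utf1) and 3 did not pass. Of all genes tested, 18.0% rose and 18.7% fell. Among the genes of primitive endoderm, 5 of 7 tested rose (Gata6, Gata4, Sox17, Foxa2, Pdgfra). The summed level of this list was 49.2 to 112 CPM in the controls and 101 to 162 CPM with PhenDC3, so the sums overlapped. Dab2 was the largest part of the sum, at a mean of 46.2 against 53.3 CPM, and did not pass (adjusted p = 0.695). Of 6 trophectoderm markers tested, 2 rose (Krt8, Krt18), and the list summed to 53.8 to 71.6 CPM in the controls and 103 to 154 CPM with PhenDC3. These 2 keratins made most of the sum, with means of 28.1 against 65.9 CPM (Krt8) and 23.7 against 57.0 CPM (Krt18). Eomes (mean 5.24 against 3.79 CPM) and Tfap2a (2.95 against 1.94 CPM) were lower in every PhenDC3 sample than in any control. They did not pass (adjusted p = 0.0908 and 0.0824), nor did Hand1, whose groups overlapped (adjusted p = 0.249). The defining gene Cdx2 was at 0.173 to 0.460 CPM throughout. Of the neuroectoderm markers, 1 rose (Nes) and 2 fell (Pax6, Sox11) among 5 tested, with sums of 52.4 to 62.2 and 41.5 to 44.4 CPM. The means of Sox11 were 31.9 against 3.45 CPM, those of Pax6 7.13 against 1.92 CPM and those of Nes 14.0 against 33.1 CPM. Sox1 (mean 2.37 against 3.67 CPM) and Otx1 (0.239 against 0.628 CPM) were higher in every PhenDC3 sample than in any control. Neither passed (adjusted p = 0.0747 and 0.0506). The mesoderm list had 1 fall among 4 tested (Lefty2, sums of 58.6 to 92.5 and 31.6 to 61.6 CPM), and T was under 0.5 CPM in every sample. Lefty2 made nearly all of these sums, at a mean of 74.2 against 41.9 CPM. Its groups overlapped, as did the sums. Of 3 fibroblast markers tested, 1 fell (Thy1, sums of 5.88 to 6.84 and 3.22 to 5.92 CPM), and Dcn had no count. Of the marker genes named, Pou5f1, Dppa5a, Gata6, Pdgfra and Lefty2 lost their call without PhenDC3 replicate 1, and some of them also without other samples or with another scaling or filter (adjusted p up to 0.122). The part of other cell types in the results below was not tested, and in these bulk samples fewer cells of a type and less RNA per cell cannot be told apart.

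The sequence next to the start of these genes is shown because the treatment acts on G-rich DNA and because the data include origin peaks at the starts. RefSeq's promoter table (GRCm38.p6, the build of the peak lists) held 9 of the 10 genes, all but Id1. The first set holds the stretches of the 250 bases upstream of the first start of each gene that reached a G4Hunter score of 2, a score of G-richness and G-skewness in windows of 25 bases. Each is written 5′ to 3′ on its G-rich strand, and capitals mark runs of at least 3 G. They lie at chr13:48260928-48260958 (minus strand, upstream of Id4), chr14:34502675-34502733 (plus strand) and chr14:34502569-34502602 (minus strand, both upstream of Bmpr1a), chr13:56702982-56703009 (minus strand, upstream of the first Smad5 start) and chr9:64022193-64022231 (minus strand, upstream of Smad6).
Id4: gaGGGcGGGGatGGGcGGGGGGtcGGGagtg
Bmpr1a, farther from the start: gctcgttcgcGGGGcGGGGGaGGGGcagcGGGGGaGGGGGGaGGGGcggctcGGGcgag
Bmpr1a, nearer to the start: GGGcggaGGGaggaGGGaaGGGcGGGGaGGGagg
Smad5: gaGGGGGaGGGGGGGcggcggcggaGGG
Smad6: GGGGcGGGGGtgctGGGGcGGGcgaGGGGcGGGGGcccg

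The Smad6 stretch and the nearer Bmpr1a stretch have their G runs on the strand of the gene, and the other 3 on the opposite strand. A further stretch with a score of 2, also on the opposite strand, lies upstream of the third Smad5 start and is not printed, since the window before that start overlaps Smad5 exons. The Id4 stretch spans positions −188 to −158 from the start and holds 5 G runs. The farther Bmpr1a stretch, at positions −187 to −129, has 7 G runs and a score of 3. A score of at least 2 was found in the 250 upstream bases of 17.5% of the 32851 promoters in the table.

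The second set gives the 250 bases upstream of the start, on the strand of the gene, for the 3 Id genes in the table, so that 1 that fell (Id3), 1 that rose (Id4) and 1 that did not pass (Id2) stand side by side, and for Bmp4, the ligand that fell. They lie at chr12:25096093-25096342 (minus strand, Id2), chr4:136143572-136143821 (plus strand, Id3), chr13:48260866-48261115 (plus strand, Id4) and chr14:46390670-46390919 (minus strand, Bmp4), in GRCm38.p6. Capitals mark GGCGCC, the GC-rich sequence known to be bound by the Smads of the BMP branch, and CAGAC or its reverse complement GTCTG, the Smad-binding element. Both strands were searched, and the motifs did not overlap.
Id2: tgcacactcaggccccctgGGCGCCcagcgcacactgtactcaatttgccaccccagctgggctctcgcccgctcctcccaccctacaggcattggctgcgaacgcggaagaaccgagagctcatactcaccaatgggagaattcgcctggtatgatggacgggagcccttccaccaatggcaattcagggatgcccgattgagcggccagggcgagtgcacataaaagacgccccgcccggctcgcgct
Id3: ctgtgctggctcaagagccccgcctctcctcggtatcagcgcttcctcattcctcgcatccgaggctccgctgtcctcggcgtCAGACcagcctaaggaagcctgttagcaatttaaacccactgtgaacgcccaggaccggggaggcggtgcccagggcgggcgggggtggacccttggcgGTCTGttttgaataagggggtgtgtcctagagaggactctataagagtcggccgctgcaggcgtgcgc
Id4: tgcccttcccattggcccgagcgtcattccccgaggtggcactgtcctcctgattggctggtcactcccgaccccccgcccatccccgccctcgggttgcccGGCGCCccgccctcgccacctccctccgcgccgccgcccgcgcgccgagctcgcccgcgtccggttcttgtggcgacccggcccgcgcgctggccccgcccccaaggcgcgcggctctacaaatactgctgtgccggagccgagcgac
Bmp4: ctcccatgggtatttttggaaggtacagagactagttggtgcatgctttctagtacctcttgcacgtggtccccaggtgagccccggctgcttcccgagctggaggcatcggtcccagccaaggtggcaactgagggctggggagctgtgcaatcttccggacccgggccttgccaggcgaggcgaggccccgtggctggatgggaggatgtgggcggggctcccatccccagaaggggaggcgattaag

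GGCGCC was present in the windows of Id2 and Id4, and also of Bmpr1a and of the second Smad5 start, against 9.59% of all 32851 promoters. The Id3 window held CAGAC 2 times, counting both strands, against 42.2% of promoters with at least 1. The Bmp4 window held neither. These matches describe the letters only.

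At an adjusted p of at most 0.05, 4 of the 10 genes rose (Id4, Msx2, Smad5 and Smad1), 3 fell (Id1, Id3 and Bmp4) and 3 did not pass (Id2, Bmpr1a and Smad6). Of all genes tested, 36.8% passed in either direction, 18.0% as higher and 18.7% as lower. In the same 7 genes the 3 PhenDC3 samples did not overlap the 3 control samples, which held for 50.6% of all genes. The median log2 fold change (PhenDC3 over control) was 0.31 over the 10 genes and 0.01 over all genes tested. The 10 genes were chosen with earlier results of these data known, so these comparisons with all genes are a description. The labels number the samples without saying whether they came from separate cultures, so the p-values measure the spread between these samples, which may be technical.

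**Figure D1:**
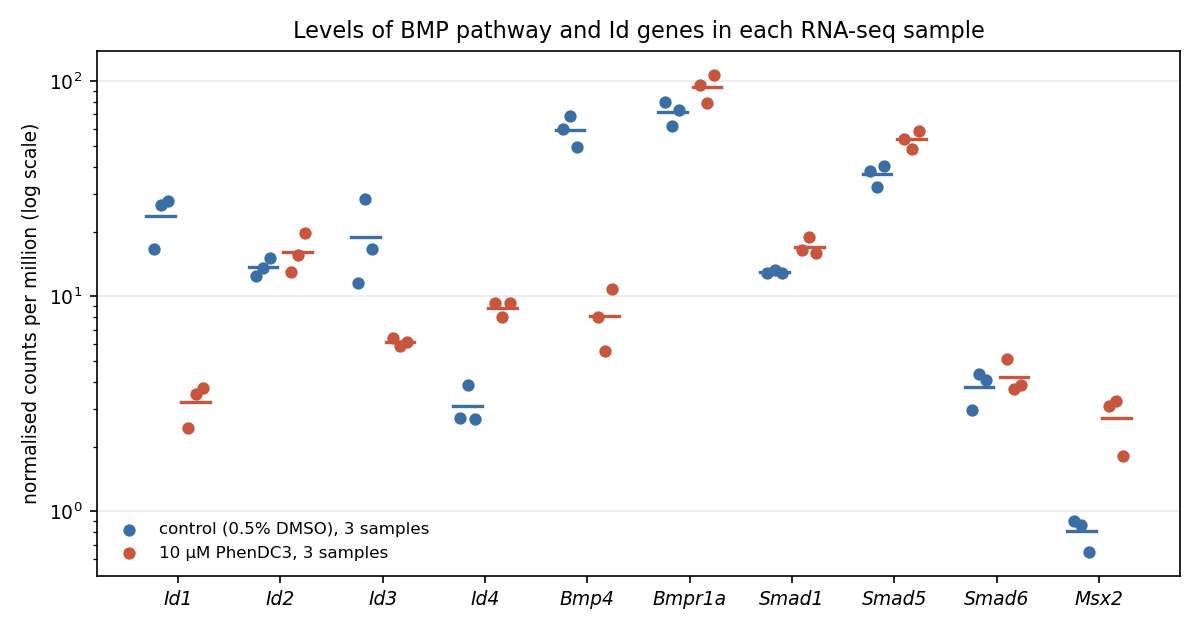
Each point is 1 RNA-seq sample, on a log axis of counts-per-million of the normalised library, with blue for the 3 controls and red for the 3 PhenDC3 samples, and the short lines are group means. The PhenDC3 points of Id1, Id3 and Bmp4 all lie below the controls, those of Id4, Smad1, Smad5 and Msx2 all lie above, and Id2, Bmpr1a and Smad6 overlap.

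Among the ligands, Bmp4 (Entrez 12159, chr14:46383525-46390669, minus strand) had the largest fall. With replicates 1, 2 and 3 given in that order here and below, its level was 60.2, 68.5 and 49.2 CPM in the controls and 8.01, 5.56 and 10.8 CPM with PhenDC3. Every control was more than 4 times the highest PhenDC3 sample. The level was 7.30-fold lower with PhenDC3 (log2 fold change −2.86 ± 0.24 SE, adjusted p = 8.86e-05), the 54th lowest log2 fold change of the 13972 genes. Exons of Bmp4 share bases with those of Gm15217 on the other strand, which had between 0 and 2 counts in each sample.

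Of the 13 ligand genes in the table, 6 were tested, and besides the fall of Bmp4 there was 1 rise, of Bmp2, a close relative that uses the same receptors. Bmp2 was low, at 0.688, 0.319 and 1.43 CPM in the controls and 2.19, 2.13 and 3.05 CPM with PhenDC3 (log2 fold change 1.59 ± 0.44, adjusted p = 0.0203). All 3 PhenDC3 values lay above the controls, but the call was lost without control replicate 1 or without PhenDC3 replicate 3 (adjusted p up to 0.0824). Bmp6, Bmp7, Bmp8a and Bmp8b did not pass, with log2 fold changes between −0.85 and 0.41. The median over the 6 was −0.21.

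Put on a scale per length of exons (RPKM), the 13 ligand genes together made 31.9, 36.2 and 26.7 RPKM in the controls and 7.14, 6.19 and 8.35 RPKM with PhenDC3. Bmp4 made up 91.6%, 92.0% and 89.5% of this sum in the controls, and 54.5%, 43.7% and 62.9% with PhenDC3. In the controls nearly all ligand transcript was thus Bmp4, while with PhenDC3 the smaller sum was spread over several genes. The share of Bmp7 went from 2.78% ± 0.359 (SD, n = 3) to 16.8% ± 7.18 (SD, n = 3), although Bmp7 itself did not pass the test (log2 fold change 0.41 ± 0.25, adjusted p = 0.225).

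**Figure D2:**
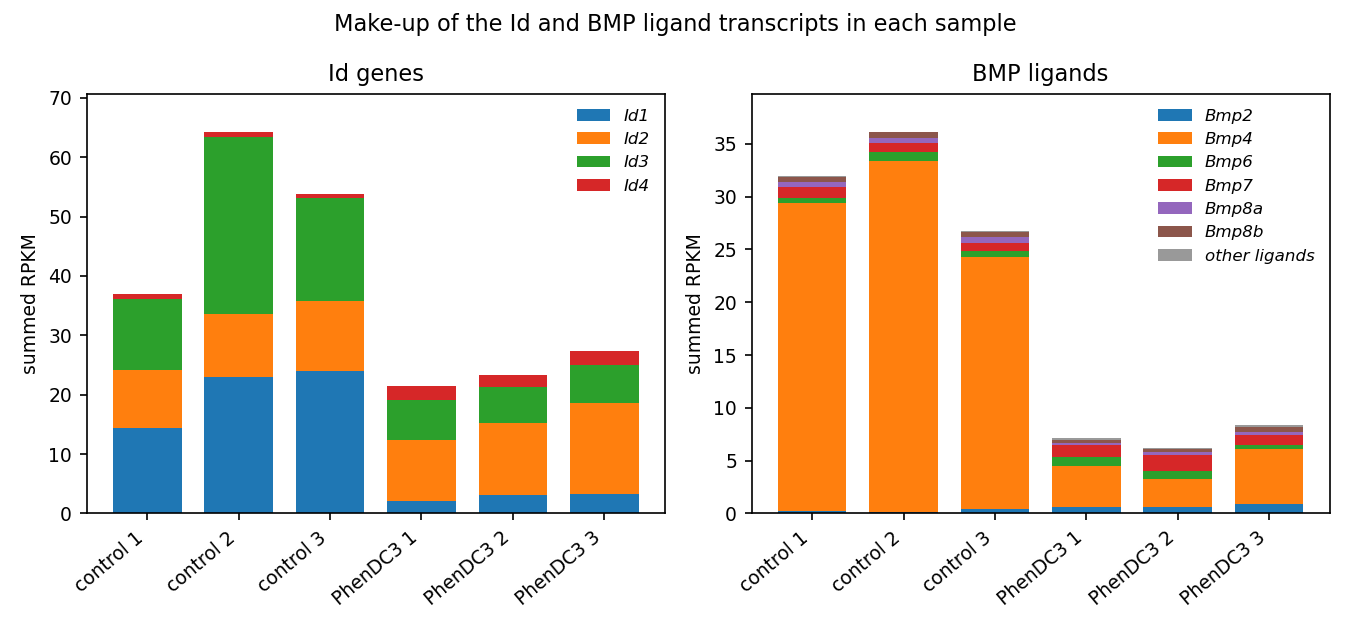
Stacked bars give the summed RPKM of the 4 Id genes (left) and of the 13 BMP ligand genes (right) in each RNA-seq sample. Each Id gene and each of Bmp2, Bmp4, Bmp6, Bmp7, Bmp8a and Bmp8b has a colour, and the other ligands are joined in grey. Id1 and Id3 make most of the left bars in the controls and Id2 the largest part with PhenDC3, and the Bmp4 part of the right bars falls from 91.0% to 53.7% on average.

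Bmpr1a (Entrez 12166, chr14:34411068-34502546, minus strand) codes for a type I receptor of BMP2 and BMP4. It was at 79.7, 61.6 and 73.6 CPM in the controls and at 96.4, 78.9 and 107 CPM with PhenDC3. PhenDC3 replicate 2 lay below control replicate 1, so the groups overlapped. The log2 fold change was 0.39 ± 0.15 and did not pass (adjusted p = 0.0618). It passed under some other settings: with the replicate number as a block (adjusted p = 0.00215), with scaling by total counts only (0.0116) and without PhenDC3 replicate 2 (0.0316).

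Over the 7 receptor genes, 3 rose, none fell and 4 did not pass, with a median log2 fold change of 0.42. Acvr1, another type I receptor, went from 7.35, 6.29 and 5.19 CPM to 11.7, 12.1 and 10.1 CPM (log2 fold change 0.84 ± 0.18, adjusted p = 0.00593). Bmpr2, the type II receptor specific to BMPs, went from 21.8, 19.97 and 20.1 CPM to 29.5, 28.2 and 34.0 CPM (0.57 ± 0.12, adjusted p = 0.00677). In both genes all PhenDC3 samples lay above all controls, and so they did in the type II receptor Acvr2a (0.42 ± 0.14, adjusted p = 0.0455). Among 5 co-receptors, which help ligands to reach the receptors, 3 rose and 1 fell. Tgfbr3 (betaglycan) rose by 1.63 ± 0.29 on the log2 scale (adjusted p = 0.00275), Eng (endoglin) by 0.99 ± 0.13 (adjusted p = 0.000671) and Rgmb, a repulsive guidance molecule that binds BMPs, by 0.60 ± 0.19 (adjusted p = 0.0325). The calls of Rgmb and Acvr2a were lost without some of the samples (control replicate 2, PhenDC3 replicate 1 or PhenDC3 replicate 3 for both, and for Acvr2a also control replicate 3 or PhenDC3 replicate 2, with adjusted p up to 0.125 and 0.138), and that of Acvr2a also with TMM scaling and without the filter on low counts. Hfe2 (hemojuvelin) fell, from 2.82, 1.46 and 1.47 CPM to 0.590, 0.627 and 0.545 CPM (−1.71 ± 0.36, adjusted p = 0.00592).

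Smad5 (Entrez 17129, chr13:56703010-56742378, plus strand) and Smad1 (Entrez 17125, chr8:79338395-79399428, minus strand) code for the transcription factors that the type I receptors phosphorylate. Smad5 was at 38.4, 32.2 and 40.4 CPM in the controls and at 54.1, 48.3 and 58.9 CPM with PhenDC3 (log2 fold change 0.54 ± 0.13, adjusted p = 0.0113). Smad1 was at 12.8, 13.2 and 12.8 CPM in the controls and at 16.4, 18.8 and 15.8 CPM with PhenDC3 (0.39 ± 0.13, adjusted p = 0.0396). Both stood higher in every PhenDC3 sample than in any control. The call of Smad1 was close to the threshold and was lost without any 1 of the 6 samples (adjusted p between 0.0626 and 0.141) and without the filter on low counts (0.0604), whereas Smad5 kept its call.

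Smad9, the third receptor-activated Smad of this branch, was under 1 CPM in every sample, and Smad4, the common partner, was at 69.0, 63.1 and 81.5 CPM against 68.4, 60.5 and 70.1 CPM (log2 fold change −0.10 ± 0.13, adjusted p = 0.557). Per length, Smad1, Smad5 and Smad9 summed to 9.55 ± 0.532 RPKM (SD, n = 3) in the controls and 13.2 ± 0.309 RPKM (SD, n = 3) with PhenDC3. Smad5 made 53.9% ± 3.35 of that sum in the controls and 56.5% ± 4.44 with PhenDC3 (SD, n = 3 each), a difference smaller than the spread between replicates.

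Smad6 (Entrez 17130, chr9:63953076-64022059, minus strand) codes for an inhibitory Smad and is itself a known target of BMP signalling. It was at 2.97, 4.33 and 4.06 CPM in the controls and at 5.10, 3.72 and 3.85 CPM with PhenDC3. The groups overlapped, and the log2 fold change of 0.16 ± 0.23 did not pass (adjusted p = 0.601). Of 9 genes listed as intracellular or membrane brakes, 1 rose, 2 fell and 6 did not pass, with a median log2 fold change of 0.16. Smad7 (mean 90.9 against 119 CPM, adjusted p = 0.0562), Smurf1 (0.0978) and Smurf2 (0.0934) did not pass but were higher in every PhenDC3 sample than in any control. Bambi did not pass either (0.0886) and was lower in every PhenDC3 sample. Skil (SnoN), a repressor of Smad-driven transcription, went from 112, 77.8 and 145 CPM to 52.1, 44.6 and 62.7 CPM (−1.07 ± 0.22, adjusted p = 0.0056). Fkbp1a, whose product binds type I receptors and keeps them inactive, fell by 0.64 on the log2 scale (SE 0.11, adjusted p = 0.00226). Tob1, which restrains BMP Smads, rose by 0.82 ± 0.17 (adjusted p = 0.00564).

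Of 14 secreted antagonists and binding proteins 7 were tested, of which 3 rose, none fell and 4 did not pass. Their median log2 fold change was 1.20, the value of Nbl1, which had a mean of 0.643 CPM and did not pass (adjusted p = 0.0619). Twsg1 had the highest level of the list, at a mean of 45.8 against 49.9 CPM, and did not pass (0.12 ± 0.11, adjusted p = 0.397). Fst (follistatin), which binds activins and some BMPs, was at 2.53, 2.92 and 2.03 CPM in the controls and at 10.1, 15.9 and 16.4 CPM with PhenDC3 (2.50 ± 0.24, adjusted p = 0.000159). Bmper, an extracellular BMP-binding protein, was at 4.05, 3.24 and 0.908 CPM against 8.88, 8.24 and 8.21 CPM (1.62 ± 0.40, adjusted p = 0.0134). Nog (noggin), a direct antagonist of BMP4, was low, at 0.326, 0.274 and 0.303 CPM against 1.01, 1.21 and 1.38 CPM (1.97 ± 0.33, adjusted p = 0.00229). In all 3 genes every PhenDC3 sample exceeded every control.

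The ligands, receptors, co-receptors, Smads, brakes, antagonists and BMP-responsive genes together hold 67 genes, of which 50 were tested. Of these, 18 rose, 7 fell and 25 did not pass, and the median log2 fold change was 0.36. Without the members, 14 of 40 rose and 4 fell. These counts stand beside the 18.0% and 18.7% of all genes given above, and they are a description, since the lists were assembled with earlier results of these data known. In the same samples 5 of 7 primitive endoderm markers and 2 of 6 trophectoderm markers rose, as given above.

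**Figure D3:**
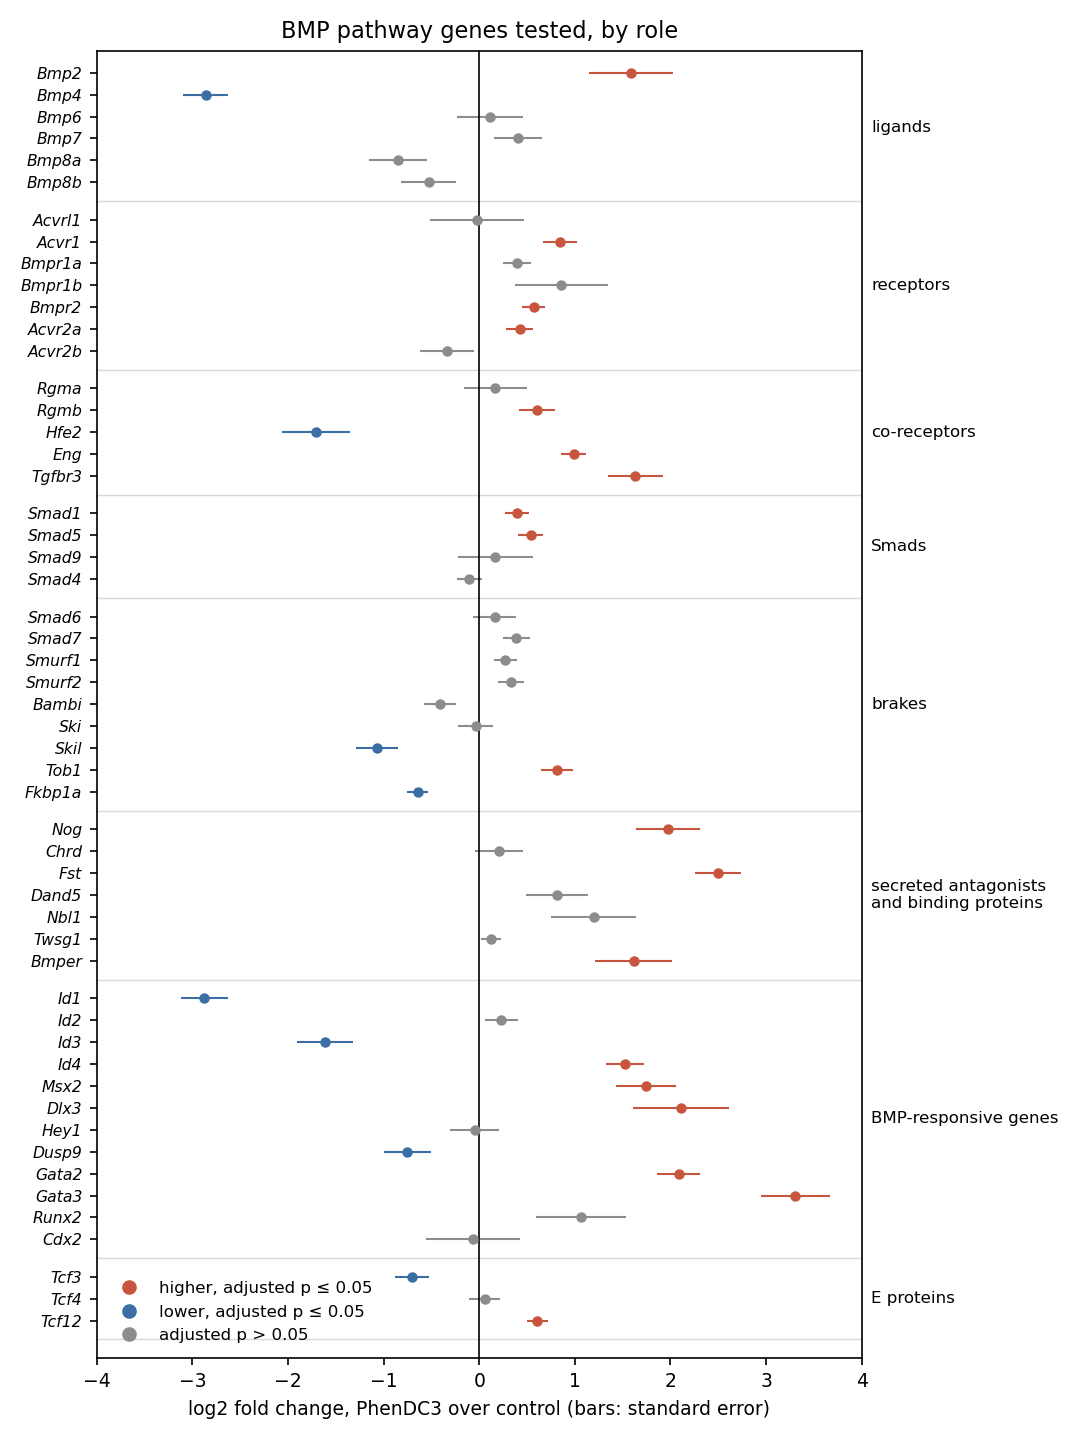
Points are log2 fold changes (PhenDC3 over control) of the pathway genes tested and of 3 E proteins, grouped by role, and bars are standard errors. Red points rose, blue points fell and grey points did not pass an adjusted p of 0.05. Bmp4 (−2.86) and Id1 (−2.88) stand farthest to the left, and no receptor and no secreted antagonist fell.

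The 4 Id genes, the best known targets of the pathway, did not move together. Id1 (Entrez 15901, chr2:152736251-152737410, plus strand) was at 16.6, 26.7 and 27.8 CPM in the controls and at 2.43, 3.51 and 3.74 CPM with PhenDC3. All PhenDC3 samples were far below the lowest control. The level was 7.34-fold lower (log2 fold change −2.88 ± 0.25, adjusted p = 0.000108), the 52nd lowest of all genes tested. Id3 (Entrez 15903, chr4:136143822-136145392, plus strand) was at 11.5, 28.3 and 16.5 CPM in the controls and at 6.42, 5.85 and 6.10 CPM with PhenDC3. The controls spread widely while the PhenDC3 samples were close together, and the groups did not overlap. Id3 was 3.07-fold lower (−1.61 ± 0.29, adjusted p = 0.00314), and −1.20 ± 0.20 on the log2 scale without control replicate 2, the highest control (adjusted p = 0.00243).

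Id4 (Entrez 15904, chr13:48261116-48266028, plus strand) went the other way. It was at 2.71, 3.88 and 2.68 CPM in the controls and at 9.26, 7.99 and 9.33 CPM with PhenDC3. The lowest PhenDC3 sample was above 2 times the highest control. The rise was 2.87-fold (log2 fold change 1.52 ± 0.20, adjusted p = 0.000688). Id4 exons share bases with A330033J07Rik on the other strand, which had 0 counts in all samples. Id2 (Entrez 15902, chr12:25093799-25096092, minus strand) was at 12.4, 13.5 and 15.1 CPM in the controls and at 13.0, 15.5 and 19.6 CPM with PhenDC3. These groups overlapped, and the log2 fold change of 0.23 ± 0.17 did not pass (adjusted p = 0.328).

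Per length, the 4 Id genes summed to 36.9, 64.3 and 53.8 RPKM in the controls and to 21.4, 23.4 and 27.4 RPKM with PhenDC3, so that every PhenDC3 sum lay below every control sum. The make-up of the sum also differed. Id1 made 38.8%, 35.7% and 44.5% of it in the controls and 9.79%, 13.0% and 11.8% with PhenDC3. Id2, whose own level did not pass the test, made 26.5%, 16.5% and 22.03% in the controls and 47.8%, 52.1% and 56.3% with PhenDC3. The most abundant Id transcript was Id1 or Id3 in each control and Id2 in each PhenDC3 sample. Id3 made 37.1% ± 7.90 (SD, n = 3) against 27.1% ± 4.11 (SD, n = 3), and Id4 1.54% ± 0.301 against 9.38% ± 1.34 (SD, n = 3 each).

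Among the E proteins, the partners that Id proteins bind, 1 rose, 1 fell and 1 did not pass. Tcf3 (the gene of E12 and E47) was at 108, 167 and 175 CPM in the controls and at 100, 88.6 and 87.8 CPM with PhenDC3 (log2 fold change −0.70 ± 0.18, adjusted p = 0.0145, and 0.0514 without PhenDC3 replicate 3). Tcf12 was at 18.3, 18.6 and 19.1 CPM against 29.1, 28.2 and 28.1 CPM (0.61 ± 0.11, adjusted p = 0.00276). Tcf4 overlapped between the groups (0.06 ± 0.16, adjusted p = 0.815). The 3 genes summed to 55.9 ± 11.9 RPKM (SD, n = 3) in the controls and to 39.7 ± 2.16 RPKM (SD, n = 3) with PhenDC3, with 42.4 RPKM in the lowest control and 42.1 RPKM in the highest PhenDC3 sample.

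Msx2 (Entrez 17702, chr13:53466881-53472780, minus strand) codes for a homeobox factor and is a known BMP target in many tissues. It was low, at 0.905, 0.866 and 0.649 CPM in the controls and at 3.09, 3.26 and 1.82 CPM with PhenDC3. Each PhenDC3 sample stood above each control, with replicate 3 the lowest of the 3. The rise was 3.37-fold (log2 fold change 1.74 ± 0.31, adjusted p = 0.003). In the list of 15 BMP-responsive genes, which holds the Id genes and Msx2, 12 were tested, of which 5 rose, 3 fell and 4 did not pass, with a median log2 fold change of 0.65. Gata3 went from 0.398, 0.957 and 0.303 CPM to 5.06, 5.98 and 5.23 CPM (3.31 ± 0.36, adjusted p = 0.000267). Gata2 went from 0.905, 1.32 and 1.17 CPM to 4.61, 4.68 and 5.08 CPM (2.09 ± 0.23, adjusted p = 0.000258). Both code for GATA factors of trophoblast and blood lineages, and Gata3 had the largest rise of the list. The homeobox gene Dlx3 also rose (2.11 ± 0.50, adjusted p = 0.011) but stayed under 1 CPM, and the phosphatase gene Dusp9 fell (−0.75 ± 0.25, adjusted p = 0.0398) with overlapping groups, a call that was lost without any 1 sample other than control replicate 3, without the filter on low counts and with scaling by total counts only (adjusted p up to 0.127). The list thus held genes moving both ways, with the falls in Id1, Id3 and Dusp9 and the rises in Id4, Msx2, Dlx3, Gata2 and Gata3.

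The order of the 10 genes by level per length was not the same in the 2 groups. In the controls it ran from Bmp4 (28.8 ± 4.71 RPKM) over Id1 (20.4 ± 5.31), Id3 (19.7 ± 9.04), Bmpr1a (13.1 ± 1.67), Id2 (10.8 ± 1.06), Smad5 (5.16 ± 0.598), Smad1 (4.30 ± 0.0799), Smad6 (1.27 ± 0.243) and Id4 (0.780 ± 0.172) to Msx2 (0.373 ± 0.0639 RPKM, SD, n = 3 each). From Bmp4 to Id2 each gene overlapped its neighbour in the order, and from Id2 down the neighbours were separate in these samples. With PhenDC3 it ran from Bmpr1a (17.2 ± 2.61 RPKM) over Id2 (12.6 ± 2.62), Smad5 (7.49 ± 0.740), Id3 (6.43 ± 0.296), Smad1 (5.65 ± 0.519), Bmp4 (3.95 ± 1.28), Id1 (2.78 ± 0.604), Id4 (2.24 ± 0.191) and Smad6 (1.42 ± 0.256) to Msx2 (1.26 ± 0.365 RPKM, SD, n = 3 each). Here the neighbours were separate only between Id2 and Smad5, between Smad1 and Bmp4, and between Id4 and Smad6. Bmp4 and Id1 held the highest places in the controls and the sixth and the seventh with PhenDC3.

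Id1 had the largest absolute log2 fold change among the members with a mean of at least 10 CPM. The 3 genes whose pattern lay closest to it, by the root mean square difference of centred log2(CPM + 1) over the 6 samples, were Slc9b2 (0.189), Zfp423 (0.204) and Tcf15 (0.216). Slc9b2 fell from 9.19, 10.5 and 10.5 CPM to 0.798, 1.00 and 1.31 CPM. Zfp423 fell from 26.7, 30.2 and 32.8 CPM to 4.09, 3.93 and 5.63 CPM. Tcf15 fell from 14.8, 23.2 and 18.0 CPM to 2.71, 3.14 and 2.80 CPM. Since the genes were chosen for being close to Id1 in these samples, their controls also lay well above the PhenDC3 samples.

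In SNS-seq, a gene was counted as having a promoter peak if a peak of a list overlapped the 2 kb on either side of a curated RefSeq start by at least 1 bp. Since no read counts stand in the lists, the sequencing depth at a peak cannot be given, and an absent peak means only that none was called. Control replicates 1, 2 and 3 had a promoter peak at 8, 7 and 2 of the 10 genes, against 67.2%, 64.6% and 39.2% of the 13949 tested genes with a curated start. PhenDC3 replicates 1 and 2 had one at 8 and 4 of the 10 genes, against 64.3% and 46.0%. A peak in at least 2 controls was found at 6 genes (62.2% of all) and in both PhenDC3 samples at 4 (41.5%). None of the 10 had peaks in at least 2 controls and no PhenDC3 sample (8.27% of all genes), nor in both PhenDC3 samples and no control (2.03%). With 3 lists against 2, no exact permutation test can go below p = 0.2, and none was made.

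Id4 and Bmpr1a had a promoter peak in all 5 lists (25.9% of all genes). Upstream of Id4, 1 peak per list lay in the same place, between positions −577 and −165 from the start. Relative to the RNase-treated library it was enriched 2.70-fold, 2.65-fold and 3.15-fold in the controls, and 1.90-fold and 2.63-fold in the PhenDC3 samples. In PhenDC3 replicate 1 the −log10 of its peak-calling p-value was 5.31, close to the lowest of that list (5.01), against 20.3 to 27.7 in the other lists. In the lists of control replicates 1 and 2 and of PhenDC3 replicate 2 this peak reached into the G-rich stretch printed above. A further Id4 peak in the intron was listed in control replicates 1 and 2, with its summit 1151 and 1125 bases after the start and fold enrichments of 8.497 and 5.73, and neither in control replicate 3 nor with PhenDC3. Bmpr1a had peaks on both sides of its start in every list, with summits at positions −819 to −594 upstream and 405 to 835 downstream, the latter in an intron. The fold enrichments of the upstream Bmpr1a peaks were 5.10, 6.06 and 5.35 in the controls and 4.31 and 5.12 with PhenDC3. These peaks were not all in the same place. That of PhenDC3 replicate 1 (positions −676 to −527) overlapped neither that of PhenDC3 replicate 2 (−927 to −769) nor that of control replicate 3 (−856 to −772).

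Id3 had no promoter peak in any list, as 17.7% of all genes. Id1 had 1 peak in control replicate 1, beyond the end of the gene, 1 inside the gene in PhenDC3 replicate 1 and 1 upstream in PhenDC3 replicate 2, at places that did not overlap. Id2 had upstream peaks in control replicate 2 (summits at positions −1640 and −1945) and in PhenDC3 replicate 1 (summit at −236). Peaks of Bmp4 lay between its start and 681 bases into the gene in control replicates 1 and 2 and in PhenDC3 replicate 1. Msx2 had a peak in control replicate 1 only. The Smad genes had theirs in control replicates 1 and 2 and not in control replicate 3. Smad1 had a peak just upstream of its start in both of these controls (9.59-fold and 3.74-fold) and upstream peaks in both PhenDC3 samples. Smad5 and Smad6 had several peaks in each of these controls and 1 in PhenDC3 replicate 1, which lay in an intron for Smad5 and across the start for Smad6. The genes with the largest falls in RNA, Id1, Bmp4 and Id3, and those with the largest rises, Msx2 and Id4, thus had promoter peaks in between 0 and 5 lists.

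**Figure D4:**
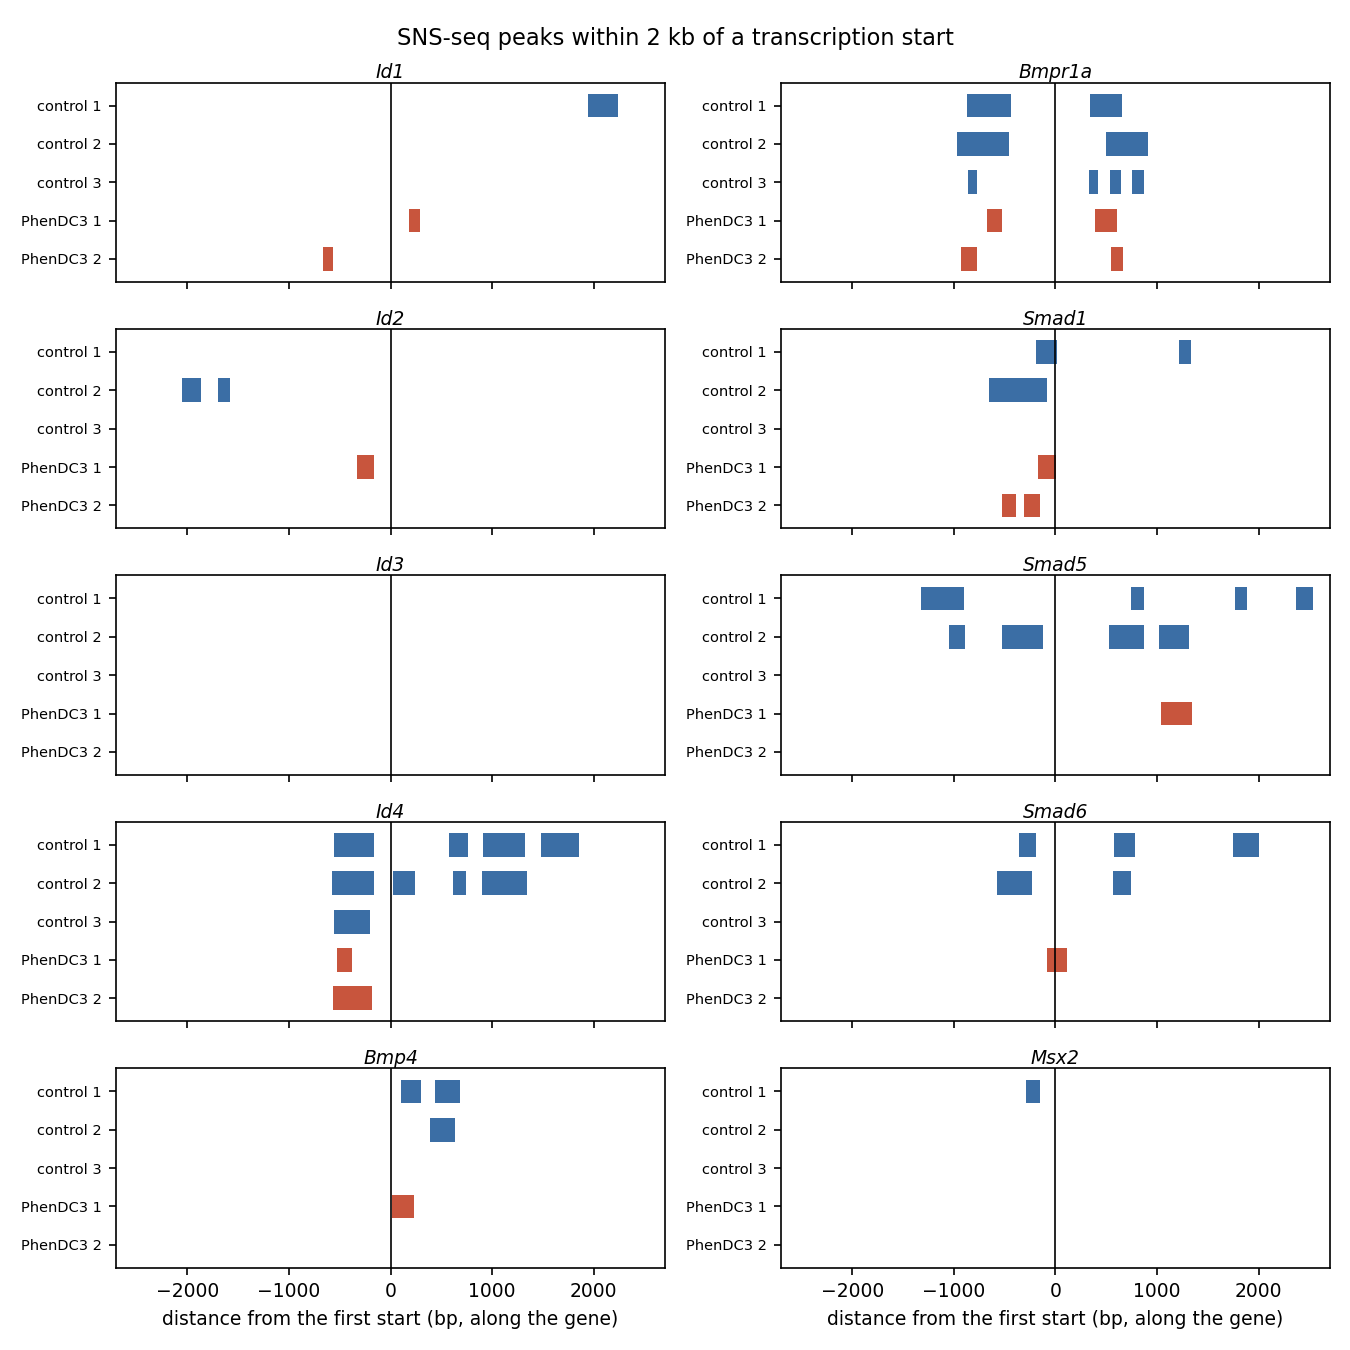
Each panel is 1 gene, and bars are SNS-seq peaks of the 3 control (blue) and 2 PhenDC3 (red) lists, by distance in bp from the first start of the gene along its direction of transcription (vertical line). Id4 has an upstream peak and Bmpr1a peaks on both sides of the start in all 5 lists, and Id3 has none.

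A G4Hunter score of at least 2 within 500 bp of a start was found for 6 of the 10 genes, against 54.9% of the tested genes with a curated start. The best scores were 3 (Bmpr1a), 2.56 (Id4), 2.52 (Smad5), 2.36 (Smad6), 2.2 (Smad1) and 2.12 (Bmp4). Msx2 (1.92), Id2 and Id3 (1.52 each) and Id1 (1.40) stayed below, and Id1 had a lower score than most genes, with 8.5% of genes at or below it. All 6 genes with such a score had a promoter peak in at least 2 controls, and none of the 4 without it did. Over all genes, the share with a promoter peak in at least 2 controls was 75.3% with such a score and 46.3% without. A promoter peak in both PhenDC3 samples was found at 3 of the 6 genes with such a score and at 1 of the 4 without (55.4% and 24.7% over all genes). With only the stronger peaks of each list, the genes with a peak in at least 2 controls were 3 of the 10 in place of 6 (46.4% of all genes). Of the 3 genes that fell in RNA, Bmp4 had a score of at least 2 and Id1 and Id3 did not, and of the 4 that rose, Id4, Smad1 and Smad5 had one and Msx2 did not.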

How the data were processed

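RNA-seq (3 control and 3 PhenDC3 samples) and SNS-seq (3 and 2) of CGR8 cells were analysed from the deposited files. The members and the gene lists were chosen with earlier results of these data known. Per the paper's methods and the submitters' processing notes, the authors prepared stranded mRNA libraries, mapped the reads with TopHat2 (2.1.1) and Bowtie2 (2.2.9), counted reads on genes with HTSeq-count (0.6.1p1) and deposited raw counts for each gene and sample. The annotation and strand setting of the counting are not given in the sources used here. A deposited table of normalised pseudo-counts and the authors' DESeq2 table (fold changes of the comparison and p-values) were not used. For SNS-seq, the authors called peaks in each replicate with MACS2 (2.1.0) on mm10 against an RNase-treated library of the condition and kept those overlapping a SICER region, and the deposited lists give each peak's position, its fold enrichment as a ratio and its significance as −log10 of a p-value.

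Counts were tested with edgeR 4.0.16 (R 4.3.3; glmQLFit robust, glmQLFTest, relative log expression normalisation, filterByExpr, no block) over the 13972 genes that passed the filter, with Benjamini-Hochberg adjustment and a threshold of 0.05, in place of the DESeq2 of the study. The procedure was tested on simulated data in which far fewer genes changed than were called here, equally in both directions. That test does not cover changes as widespread as those in these samples. RPKM divide the CPM by the joined exon length of curated RefSeq transcripts (GRCm38.p6). G4Hunter used windows of 25 bases and a threshold of 2. Genes named were the 10 members, the 20 genes of the wider BMP lists and E proteins with the smallest adjusted p (members included, at most 0.05, mean CPM of at least 1), the marker genes that passed, and the 3 genes nearest to Id1. Bmp2, Bmp6, Bmp7, Bmp8a, Bmp8b, Acvr2a, Rgmb, Nog, Twsg1, Nbl1, Dlx3, Dusp9, Smad4, Smad7, Smad9, Smurf1, Smurf2, Bambi, Tcf4 and the markers Cdx2, Eomes, Tfap2a, Hand1, Dab2, Sox1, Otx1, T and Dcn lie outside that rule and were named after their values were seen. The alternatives were TMM, DESeq2 1.42.0, no filter, each sample left out, the replicate number as a block, other windows and thresholds, and, chosen after seeing the data, scaling by total counts only and leaving out Rn45s.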

Additional observations from a re-analysis of the deposited data

How the results depend on the processing

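Of the 10 genes, 8 kept their direction and their side of the threshold under all 12 alternatives of the RNA-seq test. Smad1 lost its call under 7 and Bmpr1a gained one under 3, and no direction turned. Members that rose numbered 3 to 4, and members that fell 3, with a sample left out. Over all genes the calls moved more: with the replicate number as a block, 3797 rose and 3692 fell, and with scaling by total counts only, chosen after seeing the data, 1688 fell. That scaling put the median log2 fold change of all genes at 0.16. Rises were then 68% of the calls, against 49% in the main test and 47.5% to 51.3% in the other settings. With a sample left out, 1709 to 2689 genes rose and 1623 to 2727 fell, the fewest without PhenDC3 replicate 1. Samples with the same replicate number deviated together unevenly (correlations of 0.094, 0.663 and 0.52 across genes). Of the 6 samples, 5 correlated best with their own number, a hint from the data. The names of the count columns also number each control directly before the PhenDC3 sample of its replicate, but no label states a pairing. Under the block 5 members rose and 3 fell, and 25 and 9 of the wider pathway. With the stronger peaks only (above the median −log10 p of a list), 3 of the 10 genes had a promoter peak in at least 2 controls (46.4% of all genes). In both PhenDC3 samples 0 had one (25.1%). These counts do not ask that the peaks of a gene overlap between lists. The other windows gave 6 to 9 genes (56.9% to 71.2% of all genes) and 4 to 6 genes (33.9% to 54.6%), and the other G4Hunter settings 5 to 9 (40.3% to 87.8%). The depth behind the peaks is unknown, and with 3 samples a group a change near that of Smad1 lies at the limit of the test.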
